A study of Homo sapiens with 16 samples.

Results

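The spliceosome protein genes examined here are 50 human genes that encode proteins of the small nuclear ribonucleoprotein particles (snRNPs) and a few of their closest partners. They were taken as a list of gene names and not by a measured value, although earlier results of these data were known at that point. All 50 were found among the 20162 protein-coding genes of the GENCODE 44 annotation placed on GRCh37. By particle they comprise 7 genes for U5, 4 for U4/U6, 3 for the tri-snRNP, 3 for U1, 11 for U2, 7 for Sm proteins, 7 for LSm proteins, 3 for U11/U12, 2 for U2AF and 3 for proteins outside the snRNPs. A gene was counted as having a start peak when the summit of a ChIP-Seq peak lay within 1 kb of the 5′ end of its gene record.

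The spliceosome removes introns from pre-mRNA and is built from snRNPs, each of which joins a small nuclear RNA to a set of proteins. U1 recognizes the 5′ splice site, U2AF and U2 recognize the 3′ end of the intron and the branch point, and the tri-snRNP of U4/U6 and U5 then joins so that the catalytic center can form. A ring of Sm proteins holds the RNAs of U1, U2, U4 and U5, a ring of LSm proteins holds U6, and the U11/U12 particle takes the place of U1 and U2 on a rare class of introns.

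The peak lists come from HEK293T, a human embryonic kidney cell line, in 3 genotypes, namely wild-type, POLK-/- and DDX23-/- cells, all untreated. POLK encodes the translesion DNA polymerase Pol κ, and DDX23 encodes the helicase PRP28, which displaces U1 from the 5′ splice site. There was 1 list per genotype, of 16 samples in the series, and so no difference between genotypes has a replicate check and no test between genotypes was possible. The methods call the POLK-/- cells isogenic to HEK293T, and how the DDX23-/- cells were made is not given in the sources used here. The labels name Pol κ as the antibody target in all 3 genotypes, also in the cells labelled POLK-/-. The protocol instead names anti-FLAG M2 beads, and the labels mention no tag in these genotypes, which leaves the identity of the pulled-down protein uncertain. The titles of these samples begin with R_, a prefix that the sources used here do not explain. The numbers inside the peak names are 4, 1 and 2 for the wild-type, POLK-/- and DDX23-/- lists, although each list is assigned to the sample numbered 1, and which library of a genotype was used is therefore uncertain.

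The lists held 1468 peaks for wild-type, 2451 for POLK-/- and 5945 for DDX23-/-. The background of the peaks gave pulldown depths of 2.36 for POLK-/- and 3.95 for DDX23-/- relative to 1 for wild-type, and the weakest peaks rested on 6, 10 and 14 fragments. Depth and genotype therefore rose together across the lists and cannot be told apart in a count of peaks.

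For each particle, the sequence under the strongest DDX23-/- peak of its members is shown, because these are the stretches of DNA on which the counts below rest. Each window is 121 bases of GRCh37 centered on the summit of the peak with the smallest p in the DDX23-/- list, printed 5′ to 3′ on the strand of the gene. Capitals mark matches to any of the 8 promoter motifs searched below. The windows lie at chr1:31769599-31769719 (−) for SNRNP40 of U5, chr9:116037896-116038016 (+) for PRPF4 of U4/U6, chr2:85839106-85839226 (+) for USP39 of the tri-snRNP, chr19:49588713-49588833 (+) for SNRNP70 of U1, chr1:149899773-149899893 (−) for SF3B4 of U2, chr19:46195073-46195193 (−) for SNRPD2 of the Sm ring, chr19:2328507-2328627 (−) for LSM7 of the LSm ring, chr16:103928-104048 (+) for SNRNP25 of U11/U12, chr21:44527582-44527702 (−) for U2AF1 and chr6:44355165-44355285 (+) for CDC5L. The window of USP39 lies inside the gene and the others lie at gene starts.
SNRNP40: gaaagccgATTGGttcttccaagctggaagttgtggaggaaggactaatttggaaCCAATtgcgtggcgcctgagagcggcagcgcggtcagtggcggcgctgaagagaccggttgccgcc
PRPF4: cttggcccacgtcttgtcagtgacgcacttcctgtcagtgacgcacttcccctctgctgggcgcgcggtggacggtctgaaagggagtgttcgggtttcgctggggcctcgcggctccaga
USP39: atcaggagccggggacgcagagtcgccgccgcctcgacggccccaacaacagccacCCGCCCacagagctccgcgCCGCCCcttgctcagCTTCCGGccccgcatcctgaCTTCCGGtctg
SNRNP70: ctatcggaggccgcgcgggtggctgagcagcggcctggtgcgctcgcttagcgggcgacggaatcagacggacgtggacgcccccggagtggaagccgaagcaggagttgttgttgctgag
SF3B4: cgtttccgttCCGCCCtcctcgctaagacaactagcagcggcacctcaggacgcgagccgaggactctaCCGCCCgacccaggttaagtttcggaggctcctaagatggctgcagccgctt
SNRPD2: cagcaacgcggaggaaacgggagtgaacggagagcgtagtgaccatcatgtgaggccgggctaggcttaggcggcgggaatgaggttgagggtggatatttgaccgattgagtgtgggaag
LSM7: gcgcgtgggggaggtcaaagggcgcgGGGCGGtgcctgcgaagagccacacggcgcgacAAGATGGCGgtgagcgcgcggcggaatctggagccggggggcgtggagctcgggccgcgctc
SNRNP25: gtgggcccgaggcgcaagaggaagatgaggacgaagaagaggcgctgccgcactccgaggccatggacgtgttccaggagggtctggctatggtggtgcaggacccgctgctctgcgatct
U2AF1: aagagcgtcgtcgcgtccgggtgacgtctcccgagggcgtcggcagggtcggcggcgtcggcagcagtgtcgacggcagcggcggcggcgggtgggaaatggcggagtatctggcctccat
CDC5L: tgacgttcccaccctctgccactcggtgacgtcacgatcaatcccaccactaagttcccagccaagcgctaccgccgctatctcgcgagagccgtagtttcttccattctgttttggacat
Of these windows, SNRNP40 held the CCAAT box on both strands, SF3B4 held SP/KLF matches, LSM7 held the YY1 and SP/KLF motifs, USP39 held ETS and SP/KLF matches, and the other 6 held no match to any motif searched.

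Start peaks were found at 6 of the 50 genes (12%) in the wild-type list, where 5.56% of all protein-coding genes had one. They were found at 11 genes (22%) in the POLK-/- list, against 9.91% of all genes, and at 30 genes (60%) in the DDX23-/- list, against 24.5%. With peaks inside the gene included, the wild-type count was 7 of 50, against 6.98% of all genes. It was 12 of 50 in POLK-/- against 12.1%, and 34 of 50 in DDX23-/- against 29.5%. A start peak in every one of the 3 lists was found at 5 of the 50 members, against 4.23% of all genes. In each list the share with a start peak among the members was more than 2 times that among all protein-coding genes, a description without a test.

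The genes fell into few patterns. SNRNP40, SNRPB, SNRPD2, SNRNP25 and SNRNP48 had a start peak in all 3 lists, and SNRNP35 had one in wild-type and DDX23-/-. SF3A3, SF3B3, SF3B4, LSM4, LSM7 and U2AF1 had one in POLK-/- and DDX23-/-. A further 18 of the 50 genes had one in DDX23-/- alone, as did 13.8% of all protein-coding genes. The other 20 of 50 had none, against 75% of all genes. Every member with a start peak in the wild-type or the POLK-/- list also had one in the DDX23-/- list, as did 97.1% and 95.8% of all protein-coding genes with one in those lists. Of the 30 members in the DDX23-/- list, 60% were in neither other list, against 56.4% of all genes in it.

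**Figure D1:**
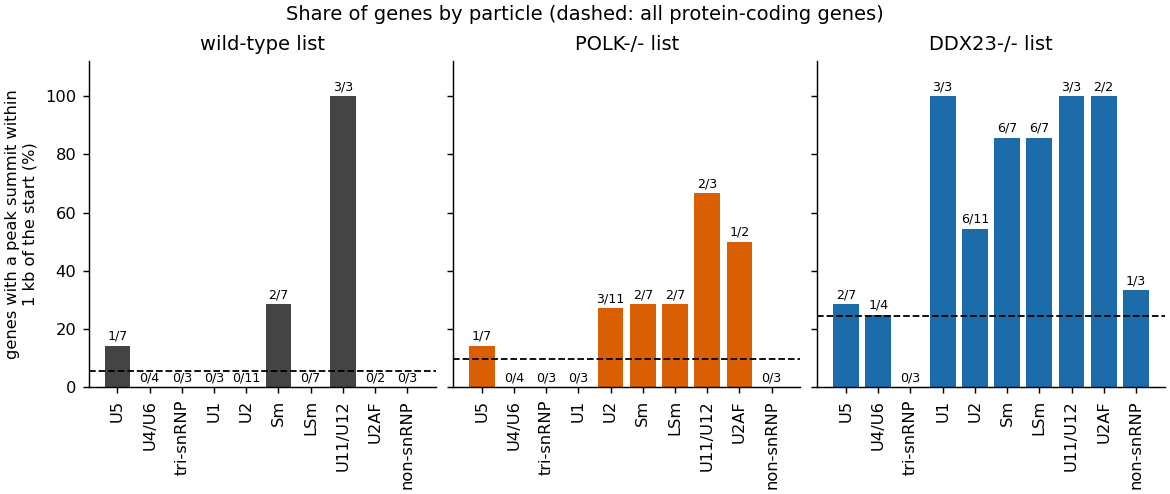
Share of the genes of each particle with a peak summit within 1 kb of the gene start (percent), 1 panel per list, with the number of genes printed and dashed lines at the share of all protein-coding genes. All 3 U11/U12 genes had a start peak in the wild-type list. None of the 3 tri-snRNP genes had one in any list, although USP39 had a peak inside its gene record in all 3 lists.

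The particles did not contribute evenly. All 3 U11/U12 genes had a start peak in the wild-type list, and 2 of the 7 Sm genes and 1 of the 7 U5 genes made up the other wild-type members. The share over all protein-coding genes in this list was 5.56%. In the DDX23-/- list all 3 U1 genes, 6 of the 7 Sm genes, 6 of the 7 LSm genes, 6 of the 11 U2 genes, both U2AF genes and all U11/U12 genes had one. Lower shares were found for U5 with 2 of 7 (28.6%), U4/U6 with 1 of 4 (25%) and proteins outside the snRNPs with 1 of 3 (33.3%). These were near the 24.5% of all protein-coding genes in the DDX23-/- list. The tri-snRNP genes had 0 of 3. With peaks inside the gene included, the DDX23-/- list held 4 of 7 U5 genes, 1 of 3 tri-snRNP genes and 7 of 11 U2 genes, and the other counts stayed as given, so the order of the particles depends on which peaks are counted. The groups are small, and the differences between particles were not tested.

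SNRNP40 encodes a WD-repeat protein of U5 and lies at chr1:31732415-31769635 on the minus strand. Its fold, the ratio of scaled fragments at the summit to the local background with 1 added to both, was 5.18 in wild-type, 13.2 in POLK-/- and 16.7 in DDX23-/-. The plain ratio of fragments to background, called enrichment below, was 6.32 (95% Poisson interval 4.01 to 9.49), 17.7 (13.7 to 22.5) and 22.4 (18 to 27.4), so that the wild-type interval lay below the others. The fragments at the summit numbered 23, 66 and 93, which at the depth of the wild-type library were 23, 28.0 and 23.6 with overlapping intervals. The local background of the wild-type peak was 3.64 fragments, against a genome-wide level of 0.573 in that list. The wild-type list was thus low in enrichment at SNRNP40 and not in depth-scaled fragments.

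The Sm gene SNRPB encodes the B protein of the ring and lies at chr20:2442280-2451499 on the minus strand. Its enrichment was 15.3 (7.64 to 27.4) in wild-type, 11.6 (7.85 to 16.6) in POLK-/- and 17.5 (12.1 to 24.5) in DDX23-/-, on 11, 30 and 34 fragments, and the intervals overlapped. SNRPD2, which encodes the D2 protein of the ring, lies at chr19:46190718-46195827 on the minus strand. Its enrichment was 18.5 (11.7 to 27.7), 24.4 (19.0 to 30.9) and 21.3 (16.8 to 26.7) on 23, 70 and 76 fragments, and here too the 3 intervals overlapped. SNRPD2 had the highest fold of the wild-type members, 10.7, and the highest of the POLK-/- members, 16.9.

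The U11/U12 genes encode proteins found in the minor spliceosome. SNRNP25, at chr16:103828-107669 on the plus strand, had an enrichment of 16.5 (9.45 to 26.9) in wild-type, 14.4 (9.91 to 20.2) in POLK-/- and 35.5 (28.7 to 43.4) in DDX23-/-, on 16, 33 and 95 fragments. The DDX23-/- interval lay above the other two, and the fold of 23 was the highest of any start peak of a member. At the depth of the wild-type library the fragments were 16.0 (9.15 to 26.0), 14.0 (9.64 to 19.7) and 24.1 (19.5 to 29.4), whose intervals overlapped. SNRNP48, which contacts the 5′ splice site of the rare introns and lies at chr6:7590431-7612200 on the plus strand, had enrichments of 16.9 (9.23 to 28.3), 9.94 (6.55 to 14.5) and 11.9 (8.32 to 16.4), with overlapping intervals. SNRNP35, the counterpart of the U1 protein SNRNP70 and located at chr12:123942635-123957701 on the plus strand, had an enrichment of 10.3 (4.96 to 19.0) in wild-type on 10 fragments and 7.39 (4.38 to 11.7) in DDX23-/- on 18 fragments. It was near the bottom of the DDX23-/- list at rank 5706 of 5945.

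**Figure D2:**
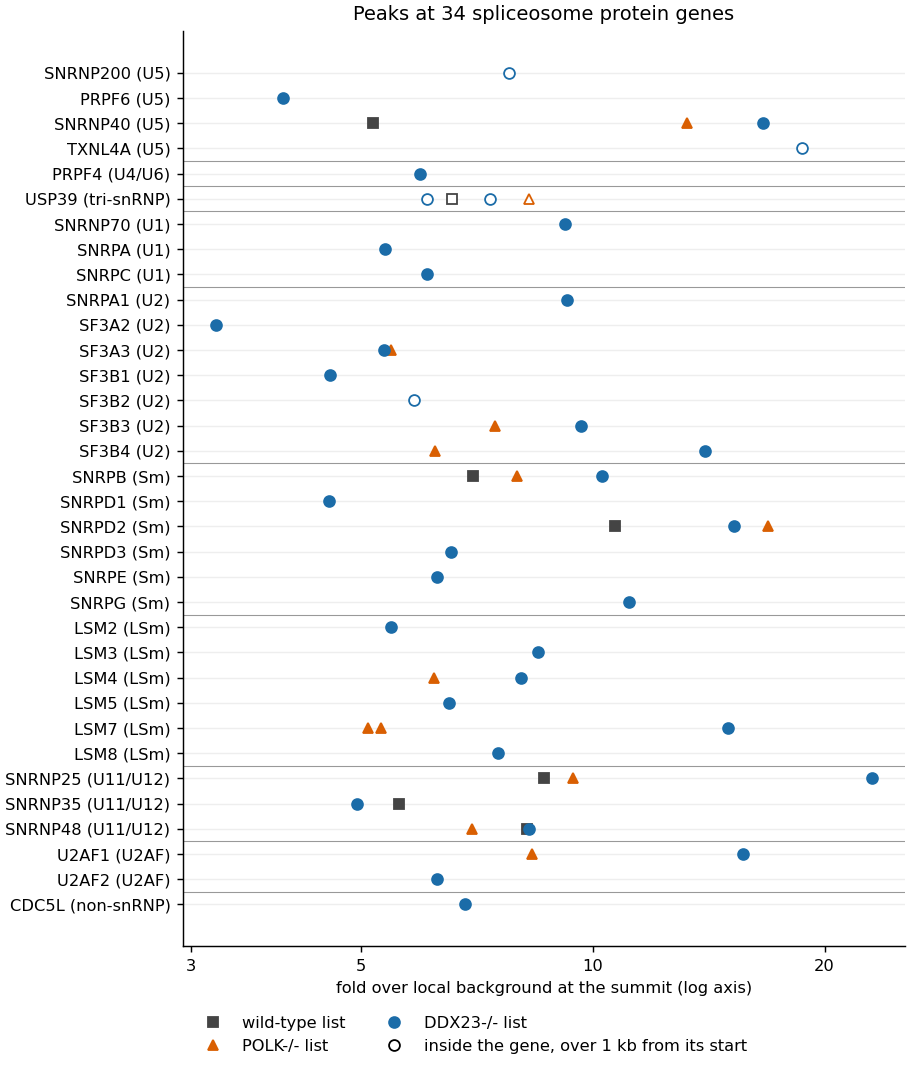
Deposited fold (ratio, log axis) of every peak at the 34 members with one, grouped by particle and marked by list, with open symbols for peaks inside the gene more than 1 kb from its start. The filled DDX23-/- points run from 3.23 at SF3A2 to 23 at SNRNP25, and the 6 filled wild-type points from 5.18 to 10.7.

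The 6 genes with start peaks in both knockout lists and not in wild-type belong to U2, the LSm ring and U2AF. SF3B4, an RNA-binding subunit of the SF3b part of U2, had an enrichment of 8.83 (5.66 to 13.1) in POLK-/- and 20.5 (15.7 to 26.2) in DDX23-/-. LSM7 of the ring around U6 had 7.85 (4.65 to 12.4) and 21.9 (17 to 27.8), and U2AF1, which reads the AG at the 3′ splice site, had 12.5 (8.41 to 17.8) and 21.9 (17.3 to 27.3). Enrichment was higher in DDX23-/- at these 3 genes, with separate intervals at SF3B4 and LSM7 and overlapping ones at U2AF1. The other 3 were closer between the lists, with enrichments of 10.7 and 12.5 at SF3B3, 8.81 and 11.3 at LSM4, and 8.47 and 6.43 at SF3A3. SF3B3 and SF3A3 encode subunits of the SF3b and SF3a parts of U2, and LSM4 a member of the ring around U6.

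Scaled to the wild-type depth, the DDX23-/- fragments at these genes were 15.7 (12 to 20.1) at SF3B4, 17 (13.2 to 21.6) at LSM7 and 19.8 (15.6 to 24.7) at U2AF1. The 6 wild-type members had 10 to 23 fragments, and the weakest peak of the wild-type list had 6. These 3 values lay within that range, as did SF3B3 at 14.4, whereas LSM4 at 9.38 and SF3A3 at 9.88 lay below it. The part of depth in the absence of these genes from the wild-type list was not tested. Between the knockout lists, LSM7 was the only one of the 6 whose depth-scaled intervals did not overlap, with 7.64 (4.53 to 12.1) in POLK-/-. That value is for the stronger of 2 LSM7 start peaks in POLK-/-, at 7 and 679 bp from the start, each on 18 fragments.

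**Figure D3:**
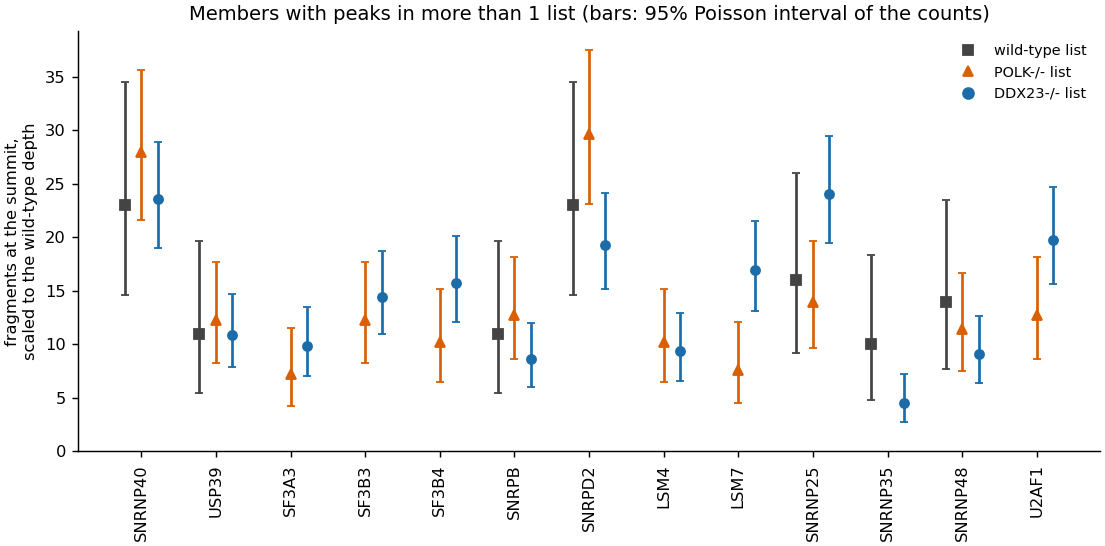
Fragments at the summit of the strongest peak of each list scaled to the depth of the wild-type library (vertical axis), with exact 95% Poisson intervals, for the members with a peak at the start or inside the gene in more than 1 list. SNRNP40 sits at 23, 28.0 and 23.6 in wild-type, POLK-/- and DDX23-/-, whereas LSM7 sits at 7.64 in POLK-/- and 17 in DDX23-/-.

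The 18 genes with a start peak in DDX23-/- alone were PRPF6 of U5, PRPF4 of U4/U6, SNRNP70, SNRPA and SNRPC of U1, SNRPA1, SF3A2 and SF3B1 of U2, SNRPD1, SNRPD3, SNRPE and SNRPG of the Sm ring, LSM2, LSM3, LSM5 and LSM8 of the LSm ring, U2AF2 and CDC5L. The smallest p belonged to SNRPG, with a fold of 11.1 and an enrichment of 19.0 (13.4 to 26.2). SNRPA1, a U2 protein, had 14.0 (9.85 to 19.3) and SNRNP70, the U1 protein that binds the first stem-loop of U1 RNA, had 13.8 (9.74 to 19.1). LSM3 had 13.9 (9.34 to 20.0) and LSM8, the subunit that keeps the LSm ring nuclear, 11.2 (7.57 to 16.0). The weakest were PRPF6, which bridges U5 and U4/U6, at a fold of 3.96 and rank 5925, and SF3A2 at 3.23 and rank 5902.

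As a group these 18 peaks were smaller than the DDX23-/- peaks of the members also found in another list. Their median fold was 6.27 (3.23 to 11.1), against 12.1 for the other 12, and the median number of fragments was 27.5 (16 to 37) against 59.5 (18 to 95). At the wild-type depth the medians were 6.97 (4.06 to 9.38) and 15.1 (4.56 to 24.1) fragments. Of the 18, 13 would hold at least the 6 fragments of the weakest wild-type peak, and of the 12 others, 11. None of the 18 exceeded 9.38, against a median of 14 fragments over the wild-type list. A peak call also depends on the local background, so these counts do not tell which peaks would be called. The part of depth in their absence from the wild-type list was not tested.

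Each list was also limited to its 1468 peaks with the smallest p. The members with a start peak then numbered 6 (12%) in wild-type, 7 (14%) in POLK-/- and 7 (14%) in DDX23-/-. The same limit gave 5.56%, 5.68% and 5.61% of all protein-coding genes. The genes differed in part. SNRNP40, SNRPD2 and SNRNP25 were in all 3 lists, SNRPB and SNRNP48 were in wild-type and POLK-/-, SF3B3 and U2AF1 were in both knockout lists, SNRNP35 was in wild-type alone, and SF3B4 and LSM7 were in DDX23-/- alone.

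The strength of the members' start peaks was near that of other genes. The median fold was 7.59 in wild-type, 7.45 in POLK-/- and 7.17 in DDX23-/- for members, against 7.23, 6.94 and 7.38 for all other protein-coding genes with a start peak. The median enrichment was 15.9, 10.7 and 11 against 15.2, 10.5 and 10.9. Peak height at members thus differed little from that at other genes, which was not tested. Over the members called in both lists, the depth-scaled fragments in DDX23-/- were a median of 0.810 times those in wild-type (n = 6), with a range of 0.456 to 1.5, against 1.09 over 1084 other genes. Enrichment gave the other direction and no such gap, with a median ratio of 1.15 for these members and 1.15 for the other genes. Relative to POLK-/- (n = 11), the median ratio of depth-scaled fragments was 1.17, against 1.07 over 1904 other genes, and that of enrichment was 1.28 against 1.44.

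**Figure D4:**
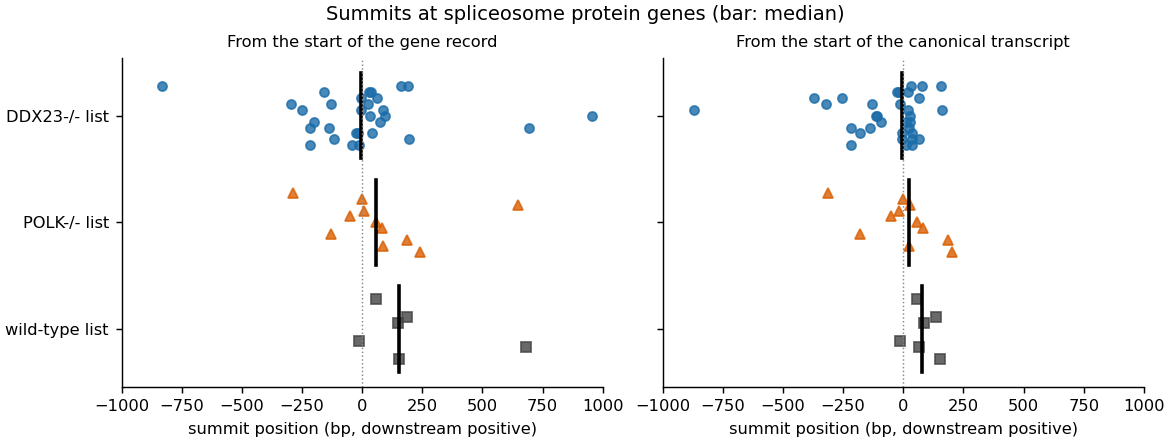
Position of the strongest summit of each member (bp, negative upstream) in each list, relative to the start of the gene record on the left and of the canonical transcript on the right, with bars at the medians. The medians on the left were 152.5 bp in wild-type, 57 bp in POLK-/- and −6 bp in DDX23-/-.

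Summits lay close to the gene start. In what follows negative positions are upstream. The median position was 152.5 bp in wild-type, 57 bp in POLK-/- and −6 bp in DDX23-/-, against 15.5, 5.5 and 9 bp at other genes. Within 200 bp of the start lay 5 of 6, 8 of 11 and 23 of 30 summits (83.3%, 72.7% and 76.7%), against 65.6%, 65.8% and 65.1% at other genes. In the DDX23-/- list 16 summits lay upstream of the gene, 11 in an exon and 3 in an intron. Just inside the limit of 1 kb were U2AF2 at 954 bp, SNRPD3 at −830 bp and SNRPD2 at 694 bp in that list, and just outside was SF3B2 at 1670 bp.

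A gene record begins at its outermost transcript, so the canonical transcript can start further in. Positions were therefore also taken from the canonical start, a choice made after the values were seen. The summits of SNRPD2 then lay at 65, 30 and 78 bp in wild-type, POLK-/- and DDX23-/-, in place of 681, 646 and 694 bp. By this start 6, 11 and 33 members (12%, 22% and 66%) had a start peak, against 5.83%, 10.4% and 26.1% of all protein-coding genes. Of their summits, 6 of 6, 9 of 11 and 27 of 33 lay within 200 bp. At other genes these shares were 75.3%, 72.5% and 74.0%.

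The members with only inside peaks were 4. TXNL4A, a small U5 protein, had a peak in DDX23-/- with a fold of 18.7 and an enrichment of 30.9 (24 to 39.2), 45277 bp into the gene record and −109 bp from the canonical start. SNRNP200, the U5 helicase that unwinds U4/U6, had one in DDX23-/- with an enrichment of 11.5 (7.84 to 16.2), 15758 bp into the record and 33 bp from the canonical start. SF3B2 of U2 had an enrichment of 7.48 (5.18 to 10.4), 35 bp from its canonical start. These 3 peaks thus lay at a start of the gene other than that of the record. USP39 of the tri-snRNP had a peak in all 3 lists at 9150, 9290 and 9187 bp, with enrichments of 13.3, 12.5 and 9.45. Those summits were 60, 80 and 23 bp from the start of the neighboring gene C2orf68, and at −97, 24 and −60 bp from a transcript start of USP39 itself, so they cannot be assigned to one of the genes. A further DDX23-/- peak of USP39 was 13 bp from its canonical start, with an enrichment of 8.97 (5.75 to 13.4).

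The 16 members with no peak at the start or inside the gene in any list were PRPF8, EFTUD2 and CD2BP2 of U5, PRPF3, PRPF31 and PPIH of U4/U6, SART1 and SNRNP27 of the tri-snRNP, SNRPB2, SF3A1, SF3B5 and SF3B6 of U2, SNRPF of the Sm ring, LSM6 of the LSm ring, and PRPF19 and PRPF38A. PRPF8 is the scaffold of the catalytic center, and EFTUD2 is the GTPase of U5.

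Many members start close to a gene on the other strand. Starts on either side were counted, so such a pair need not share a promoter. A protein-coding start on the opposite strand lay within 1 kb at 18 members (36%), against 13.3% of all protein-coding genes. Such pairs included SNRNP40 with ZCCHC17 at 194 bp, SNRNP25 with POLR3K at 220 bp, LSM7 with SPPL2B at 4 bp and SNRPD3 with GUCD1 at 23 bp, and a peak there cannot be assigned to one gene. Yet the share with a DDX23-/- start peak was 61.1% of the 18 with such a neighbor and 59.4% of the 32 without, whereas over all genes it was 50.9% and 20.4%. In wild-type the shares were 16.7% and 9.38%, against 12.3% and 4.53%. The difference between paired and unpaired genes was thus small among members in the DDX23-/- list. Another coding start was nearer to the summit than the start of the member's gene record at 1 gene in wild-type (SNRPD2). The same held at 2 genes in POLK-/- (SNRPD2 and SF3B3) and at 5 in DDX23-/- (SNRPD2, SF3B3, LSM3, SNRPD3 and LSM5). The canonical start of SNRPD2 was nearer to its summits, however. It lay 65, 30 and 78 bp away in wild-type, POLK-/- and DDX23-/-, against 515, 480 and 528 bp for QPCTL.

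Of 108 other splicing genes, chosen by function, 17 (15.7%) had a start peak in wild-type, 28 (25.9%) in POLK-/- and 59 (54.6%) in DDX23-/-, shares near those of the members. Over all protein-coding genes the shares were 5.56%, 9.91% and 24.5%. By group, the DDX23-/- list held 11 of 22 further snRNP-associated genes, 13 of 23 of the Prp19 complex and the catalytic spliceosome, 5 of 16 SR proteins, 16 of 26 hnRNP proteins, 5 of 5 exon junction complex genes and 9 of 16 snRNP assembly genes. Of these groups the SR proteins, splicing regulators rich in arginine and serine, had the lowest share in that list, 31.25% against 24.5% of all protein-coding genes. The strongest by p in DDX23-/- were LUC7L2, a U1-associated protein, with folds of 43.4, 35.9 and 27.3 in wild-type, POLK-/- and DDX23-/-, and WBP4 with 13.6, 22.2 and 41.2. SRSF3 had 10.1, 20.9 and 10.0, HNRNPAB had 9.36, 4.66 and 24.2, and PRMT5, a methyltransferase that modifies Sm proteins, had 8.64, 20.6 and 27.8. RBM8A of the exon junction complex had no wild-type start peak, and folds of 11.5 in POLK-/- and 17.6 in DDX23-/-.

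Promoters of the members were compared by sequence over 250 bases before to 50 after the start. Both strands were searched for the letters of the ETS motif CCGGAAG, the YY1 motif AAGATGGCG, the NRF1 motif GCATGCGC, the SP/KLF motif GGGCGG, the ZNF143 motif ACTACAA, the CCAAT box, the TATA box TATAAA and the B box core GTTCGANNC, and overlaps between motifs were not removed. The ETS motif was present in 22 members (44%), against 11.8% of all coding promoters and 21.0% of those of genes with a start peak in any list. It was present in 14 of the 30 members with a start peak (46.7%) and in 8 of the 20 without (40%). In this window it thus did not separate members with a start peak from those without. The window was taken at the start of the gene record, however. TXNL4A, SNRNP200, SF3B2 and USP39 are among the 20 and had peaks near another of their starts, which was not searched. At USP39 the window held no ETS match, although the sequence printed above under its peak did. The CCAAT box was present in 46% of members against 35.8% of all, the SP/KLF motif in 58% against 52.1%, and the NRF1 motif in 8% against 3.76%. The TATA box was present in 2% against 10.9%, YY1 in 2% against 1.86%, ZNF143 in 4% against 3.10% and the B box core in 2% against 1.21%. The YY1 match printed above for LSM7 is not counted here, because the promoter window did not cover it in full.

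**Figure D5:**
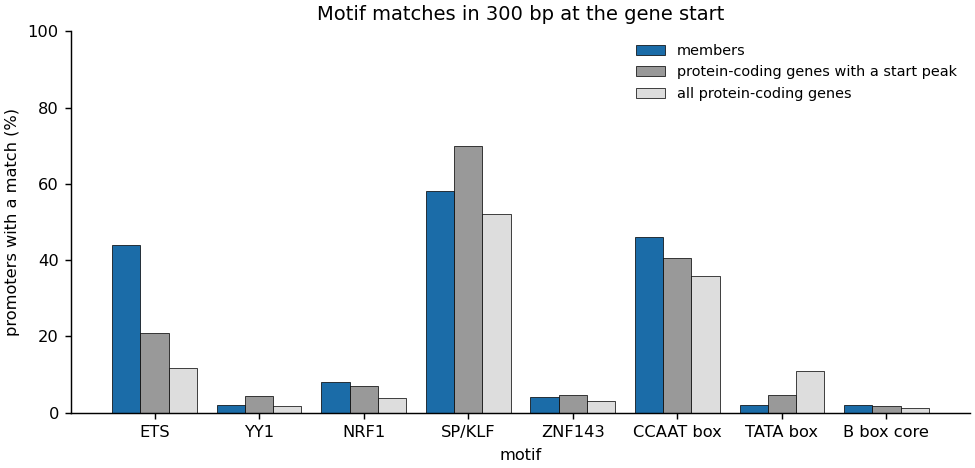
Share of promoters (percent) holding each of 8 motifs on either strand among the 50 members, all protein-coding genes and protein-coding genes with a start peak. The ETS motif stands at 44% of members, 11.8% of all genes and 21.0% of genes with a start peak.

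The ETS matches were spread unevenly, with 8 of 11 U2 genes, 4 of 7 Sm genes, 2 of 3 U1 genes, 2 of 3 tri-snRNP genes, 2 of 4 U4/U6 genes, 2 of 7 U5 genes and 2 of 7 LSm genes, and none among U11/U12, U2AF and the proteins outside the snRNPs. There were 31 matches in 22 members, and the one nearest to the start lay at a median distance of 24.5 bp from it. In the 14 members that also had a DDX23-/- start peak, the match nearest to the summit lay at a median of 54.5 bp (0 to 207) from it. The matches in the Sm genes, each with 17 bases on either side, are printed below as an example. This ring was picked after the values were seen, for its many ETS matches and many start peaks. They are GRCh37 sequence on the strand of the gene, with the motif or its reverse complement in capitals.
SNRPB (chr20:2451453-2451493, −): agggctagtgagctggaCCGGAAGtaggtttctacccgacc
SNRPD1 (chr18:19192191-19192231, +): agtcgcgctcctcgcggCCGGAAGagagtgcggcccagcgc
SNRPD1 (chr18:19192287-19192327, +): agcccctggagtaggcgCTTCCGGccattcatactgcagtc
SNRPE (chr1:203830701-203830741, +): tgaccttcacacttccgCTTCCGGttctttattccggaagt
SNRPE (chr1:203830717-203830757, +): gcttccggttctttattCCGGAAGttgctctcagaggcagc
SNRPG (chr2:70520939-70520979, −): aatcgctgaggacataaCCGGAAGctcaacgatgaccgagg
The DDX23-/- summit coincided with the match at SNRPE, lay 7 bp from the nearer match at SNRPD1, and lay 50 and 69 bp away at SNRPB and SNRPG. Among the U2 genes with a match the distance ran from 0 bp at SF3A2 to 188 bp at SF3A3, and SNRPB2, SF3A1 and SF3B6 had no start peak. Both the motif window and the start peaks were tied to the gene start. The distances were not compared with those at other genes. A match is a run of letters and does not show that a factor was bound. GC content of the member promoters had a median of 60.8%, against 60.3% for all coding promoters and 64.3% for those with a start peak. The observed over expected ratio of CpG was 0.940, against 0.694 and 0.848.

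At the genes named in the genotypes, POLK at chr5:74807670-74905816 had a peak at −191 bp in wild-type (fold 6.36, 9 fragments), none within 10 kb in POLK-/- and one at −274 bp in DDX23-/- (fold 6.71, 29 fragments). DDX23 at chr12:49223539-49246625 had none in wild-type or POLK-/- and one at 649 bp in DDX23-/- (fold 5.69, 24 fragments). The edited positions are not given in the sources used here, and these peaks do not check the genotypes.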

How the data were processed

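The authors deposited 1 narrowPeak list per genotype, with a fold (a ratio, after adding 1 above and below), the −log10 of the p-value and of the q-value, and a score for each peak. The submitters' processing notes list Bowtie2, MACS2, bedtools, deepTools and hg19, without roles or versions, and the control library, the threshold and any pooling are not given in the sources used here. The paper does not describe these libraries. Whole fragments at each summit and the local background were solved from the deposited fold and p by the MACS2 formulas (tolerance 0.002 in −log10 p), which succeeded for 100% of peaks and was tested on simulated data. Enrichment is their ratio, and exact 95% Poisson intervals cover counting error only. Relative depth came from the lowest background shared by 2% of peaks, with the length of the shortest peak (228, 211 and 196 bp for wild-type, POLK-/- and DDX23-/-) standing for the fragment. Genes, starts and sequence were GENCODE 44 on GRCh37, read with pysam 0.24.0, pandas 2.3.3, numpy 2.4.6 and scipy 1.17.1 in Python 3.11.15. Named in full were members with a wild-type start peak, the 5 DDX23-/- only members with the smallest p, members with only inside peaks, PRPF8 and SNRNP200, and of each other splicing group the gene with the smallest p in DDX23-/-. Members and lists were chosen with earlier results of these data known. The values of the 6 members found in both knockout lists, of PRPF6 and SF3A2, the ETS sites, and the canonical starts were added after values were seen.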

Additional observations from a re-analysis of the deposited data

How the results depend on the processing

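No paired analysis was possible because each genotype had 1 list, and for the same reason no replicate could be left out. Over 16 results, 110 alternatives were computed, of which 104 gave a value within 1.5 times of a count or within the spread, and 6 moved, all of them where each list was limited to its 1468 strongest peaks by p. Members with a start peak became 7 in POLK-/- and 7 in DDX23-/-, those with a start or inside peak in DDX23-/- became 8, and those in all 3 lists became 3. The median fold in DDX23-/- became 15.3 and the median enrichment 21.9. Under the other settings the DDX23-/- count of start peaks lay between 25 and 34. It was 25 (50%) with a q of 1e-05 or less, where 21.8% of all protein-coding genes had one. At the start of any transcript it was 34 (68%), against 28.2%. The canonical start and the rule that the member's own start be nearest were chosen after seeing the data. The weakest wild-type peak rested on 6 fragments, and the part of depth in the counts was not tested.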
